A study of Mus musculus with 12 samples.

Results

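The Wnt ligands of the mouse, the proteins that process and receive them, and the secreted proteins that bind or amplify them were followed in embryonic stem (ES) cells lacking histone methyltransferases and in their differentiated descendants. Genes were chosen by name alone: every symbol of the Wnt, Frizzled (Fzd), secreted Frizzled-related (Sfrp), Dickkopf (Dkk), R-spondin (Rspo) and Lgr4 to Lgr6 series, the coreceptors Lrp5 and Lrp6, and Wls, Porcn, Frzb and Wif1. They came to 50 of the 22878 gene symbols in the tables: 19 Wnt ligands, 2 ligand-processing proteins, 10 Frizzled receptors, 2 coreceptors, 3 R-spondin receptors, 4 R-spondins and 10 secreted antagonists. DKO cells were labelled as SUV420H1 and SUV420H2 double knockout, KO cells as SUV420H2 knockout, and WT cells carried neither knockout. SUV420H1 and SUV420H2 methylate histone H4 on the lysine whose trimethylated form marks constitutive heterochromatin. Each genotype had 2 RNA libraries of undifferentiated ES cells, 1 library at day 8 of differentiation and 1 at day 12, 12 libraries in all. The ES cells of all 3 genotypes grew on gelatin with 1.5 µM of a GSK3 inhibitor, after passages meant to remove feeder cells. The labels do not say how cells were differentiated, how many clones stand for a genotype, or whether the 2 ES libraries came from separate cultures, so p-values measure the spread between these libraries, which may be technical.

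Wnt proteins are lipid-modified signals. Porcupine (Porcn) attaches the lipid in the endoplasmic reticulum, and Wntless (Wls) then carries the modified Wnt to the cell surface. On the receiving cell a Wnt binds a Frizzled receptor, often with Lrp5 or Lrp6, and this stops GSK3 from marking beta-catenin for destruction, so that beta-catenin reaches TCF/LEF factors in the nucleus. Other Wnts act on cell shape and polarity without beta-catenin. Sfrp proteins, Frzb and Wif1 bind Wnts outside the cell, Dkk1 and Dkk2 bind the Lrp coreceptors, and R-spondins bind Lgr receptors and keep Frizzled proteins at the surface. In ES cells Wnt signalling sustains self-renewal, and during gastrulation it sets up the primitive streak. A GSK3 inhibitor acts below the receptors.

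Reads counted in genes ranged from 22538336 to 26675600 per library. The spread between the 2 ES libraries differed by genotype. As chi-square per degree of freedom over genes it was 37.9 in DKO, 15.6 in KO and 3.99 in WT. The fit of ES cells shared its estimate of spread between the genotypes. Suv420h2 stood at 5.59 and 3.37 RPKM (reads per kilobase of transcript, scaled to a common library total) in DKO ES cells, 4.41 and 3.95 RPKM in KO ES cells, and 28.6 and 25.8 RPKM in WT ES cells, whereas Suv420h1 was not lowered in DKO ES cells, at 5.30 and 5.77 RPKM against 3.78 and 4.18 RPKM in WT ES cells. Counts over a whole transcript do not show whether single exons were removed. Every ES library carried the marker set of its label: all 10 pluripotency markers were at 1 RPKM or more, summing to 2353 and 1921 RPKM in DKO, 2853 and 2992 RPKM in KO, and 3405 and 3337 RPKM in WT. The library labelled DKO day 8 went against its label, since the same 10 markers summed to 2831 RPKM there, and the KO day 8 library kept 1900.3 RPKM, against 288 RPKM in WT day 8. By day 12 the sums were 1419 RPKM in DKO, 886 RPKM in KO and 234 RPKM in WT. The 12 markers of fibroblasts and mesenchyme summed to 13.0 and 19.8 RPKM in the DKO day 8 and day 12 libraries, 35.9 and 241 RPKM in KO and 726 and 422 RPKM in WT, and to 6.62 to 13.0 RPKM in the ES libraries. In the ES libraries 2 or 3 of the 12 reached 1 RPKM, mostly Twist1 and Thy1, while the collagen genes Col1a1 and Col3a1 reached at most 0.190 and 0.0926 RPKM. These sums moved with many of the differentiated values, and their part in those results was not tested.

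Of the 50 genes, 12 stood at 1 RPKM or more in every library, 25 reached 5 RPKM in at least 2 libraries, and 13 stayed under 1 RPKM in all 12. Those 13 were Wnt1, Wnt3a, Wnt8b, Wnt9b, Wnt10a, Wnt10b, Wnt16, Lgr5, Lgr6, Rspo2, Rspo4, Dkk4 and Wif1, with highest values from 0.0708 to 0.975 RPKM. Wnt2b and Wnt7a each passed 1 RPKM in a single library. These last 2 and the 13 are named here for completeness, after their values were seen. In the ES libraries 14 genes stood at 1 RPKM or more in all 6, and 23 in none, of which 10 passed 1 RPKM in a differentiated library. On the RPKM scale ES cells carried more receptor than ligand transcript: the 10 Frizzled genes summed to 215 and 185 RPKM in DKO, 66.2 and 67.9 RPKM in KO, and 149.8 and 147 RPKM in WT, whereas the 19 Wnt ligands summed to 18.6 and 13.1 RPKM in DKO, 7.80 and 9.44 RPKM in KO, and 4.05 and 3.59 RPKM in WT. No Wnt ligand reached 1 RPKM in WT ES cells. In KO ES cells 4 did, Wnt5b, Wnt6, Wnt7b and Wnt8a, and in DKO ES cells 3 did, Wnt6, Wnt9a and Wnt11.

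**Figure D1:**
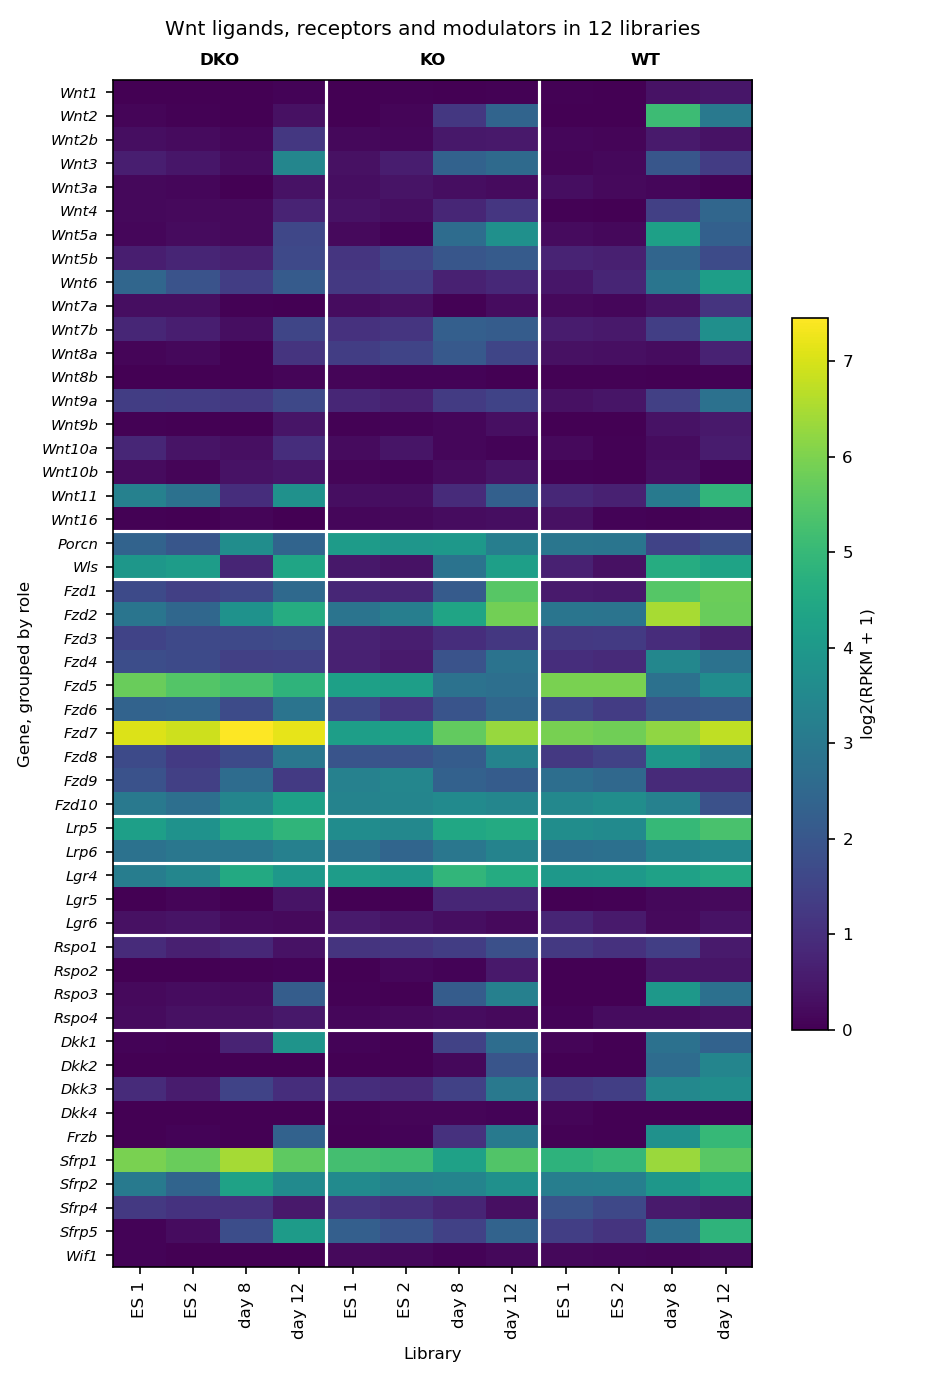
Expression of the 50 genes in each of the 12 libraries, as log2(RPKM + 1), with genes in rows grouped by role (white lines) and libraries in columns by genotype. Fzd7, Sfrp1 and Fzd5 are bright in the ES columns, and most Wnt rows are dark there.

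In KO ES cells the 2 most abundant Frizzled receptors of WT ES cells, Fzd5 and Fzd7, were both more than 3-fold lower, while 5 Wnt ligands of low abundance and Porcn were higher. Markers of another lineage differed too: the 10 neural progenitor markers summed to 35.8 and 39.7 RPKM in KO ES cells, against 10.4 RPKM in both WT libraries, with 3 of 10 at 1 RPKM or more in every one. Olig2 made up most of that difference, at 18.9 and 19.4 RPKM in KO and 0.0357 and 0.0776 RPKM in WT, with Nes at 12.4 and 15.4 RPKM in KO and 6.0 and 5.86 RPKM in WT, while Pax6 was at 0.508 and 0.446 RPKM in KO and 1.0103 and 1.06 RPKM in WT. The 12 endoderm markers summed to 8.81 and 6.55 RPKM in KO, with 3 and 2 of 12 at 1 RPKM or more, and to 4.81 and 4.74 RPKM in WT with 1 of 12. The part of these markers in the KO values was not tested. Of the 27 genes with enough signal to be tested in ES cells (at least 1 RPKM in at least 2 of the 6 libraries), 17 passed an adjusted p of 0.05 between KO and WT in edgeR's quasi-likelihood test, against a background of 42.7% of the 12044 genes tested. Of the 17, 11 were higher (background 23.5%) and 6 lower (background 19.2%), and 12 differed at least 2-fold (background 14.4%). The median log2 fold change of the 27 was 0.09, against -0.01 over all genes tested. The signal filter favoured a difference for a gene that passed it only through the group where it is high, so these counts describe the genes tested and not the 50. RNA came from whole cultures, in which fewer cells of a type and less RNA per cell cannot be told apart.

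Fzd5, a receptor for beta-catenin-activating Wnts, stood at 17.8 and 17.0 RPKM in KO ES cells, against 61.6 RPKM in both WT libraries. Fzd7, the Frizzled best known for carrying Wnt signals in pluripotent cells, stood at 17.2 and 17.98 RPKM in KO ES cells, against 59.8 and 56.6 RPKM in WT ES cells. For both receptors the KO libraries lay close together and far under the WT libraries. The log2 fold changes were -1.78 for Fzd5 (SE 0.12, edgeR adjusted p = 3.27e-07) and -1.69 for Fzd7 (SE 0.11, adjusted p = 3.27e-07). Both genes lie on chromosome 1, whose 644 tested genes had a median log2 fold change of -0.57 between KO and WT ES cells, with quartiles of -0.85 and -0.22. Fzd5 and Fzd7 were thus lower than the lower quartile of their chromosome, and the part of the chromosome-wide difference in their values was not tested. Together these receptors made up 52.9% and 51.5% of summed Frizzled RPKM in KO ES cells, against 81.1% and 80.6% in WT ES cells.

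The start sites of these receptors are shown because the genes fell together and sit on the same chromosome. The sequences are from RefSeq on GRCm38.p6, 5′ to 3′ on the gene's strand, from 250 bases before to 50 bases after the annotated start, at chr1:64737701-64738000 on the minus strand for Fzd5 and chr1:59481897-59482196 on the plus strand for Fzd7. The expression tables used the build mm9, so these positions belong to the sequences only. Capitals are kept for the TCF/LEF letters CTTTGAA or CTTTGAT on either strand, and neither window holds them.
Fzd5: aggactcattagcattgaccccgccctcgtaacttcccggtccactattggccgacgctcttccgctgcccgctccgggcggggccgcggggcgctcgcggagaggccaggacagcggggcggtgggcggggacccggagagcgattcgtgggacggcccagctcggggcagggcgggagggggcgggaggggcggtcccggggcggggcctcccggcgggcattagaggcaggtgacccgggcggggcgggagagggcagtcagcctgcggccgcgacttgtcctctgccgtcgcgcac
Fzd7: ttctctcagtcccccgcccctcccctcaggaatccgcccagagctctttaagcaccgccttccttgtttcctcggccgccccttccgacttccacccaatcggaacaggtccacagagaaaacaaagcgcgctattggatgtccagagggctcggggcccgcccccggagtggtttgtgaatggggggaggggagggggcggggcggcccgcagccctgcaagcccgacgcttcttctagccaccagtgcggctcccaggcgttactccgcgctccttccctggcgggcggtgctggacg
Both windows are rich in CpG, with 38 in Fzd5 and 24 in Fzd7, against a median of 7 over all 32851 windows of this length in the table.

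The other Frizzled receptors moved in both directions in KO ES cells. Fzd3, a receptor of planar cell polarity and axon guidance, stood at 0.640 and 0.559 RPKM in KO and 1.37 and 1.38 RPKM in WT ES cells, a log2 fold change of -1.16 (edgeR adjusted p = 8.06e-05, SE 0.15). It lies on chromosome 14, where the median of 433 tested genes was -0.53. Fzd4, which also binds the non-Wnt ligand Norrin, fell by 0.77 on the log2 scale. Fzd9 rose to 8.78 and 9.61 RPKM in KO, against 5.51 and 4.71 RPKM in WT ES cells, a log2 fold change of 0.89 (edgeR adjusted p = 0.0023, SE 0.19). Fzd1 and Fzd8 also rose, by 0.81 and 0.88 on the log2 scale. For Fzd2, Fzd6 and Fzd10 the log2 fold changes were 0.23, -0.02 and -0.18, with adjusted p-values of 0.28 to 0.95. The coreceptors Lrp5 and Lrp6 had values of -0.01 and -0.08, and Lgr4, the only R-spondin receptor above 1 RPKM in these ES cells, 0.09, none of them past the threshold.

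Of the 19 Wnt ligands 6 had enough signal to be tested in ES cells, and Wnt5b, Wnt7b and Wnt8a were among them only through the KO libraries, where alone they reached 1 RPKM. All 6 passed between KO and WT, 5 of them higher, a count that the filter in part decided. Wnt8a, a ligand of the primitive streak, stood at 1.55 and 1.86 RPKM in KO ES cells, against 0.257 and 0.235 RPKM in WT ES cells. The groups did not overlap, and the log2 fold change was 2.82 (edgeR adjusted p = 7.29e-05, SE 0.37). Wnt5b, Wnt6, Wnt7b and Wnt9a were 2.28- to 2.67-fold higher in KO. Wnt11, a ligand of gastrulation movements, was the exception, at 0.223 and 0.214 RPKM in KO, against 0.771 and 0.610 RPKM in WT ES cells, a log2 fold change of -1.62 (edgeR adjusted p = 0.00054, SE 0.28). Every ligand in these comparisons stayed under 2 RPKM in KO and under 1 RPKM in WT ES cells. Porcn, the acyltransferase that adds the Wnt lipid, stood at 16.1 and 14.2 RPKM in KO and 6.67 and 6.39 RPKM in WT ES cells, a log2 fold change of 1.26 (edgeR adjusted p = 4.19e-05, SE 0.15). Porcn lies on the X chromosome, where the median of 432 tested genes was 0.92 with an upper quartile of 1.39. The value of Porcn thus lay inside the middle range of its chromosome, and the part of that shift was not tested.

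Among the secreted antagonists Sfrp5 was 2.45-fold higher and Sfrp4 2.01-fold lower in KO than in WT ES cells. Sfrp1, the most abundant antagonist of the ES libraries, stood at 36.3 and 34.3 RPKM in KO and 27.3 and 30.0 RPKM in WT ES cells, a log2 fold change of 0.34 (edgeR adjusted p = 0.0263, SE 0.11). Sfrp2 and Dkk3 did not pass, at 0.29 and -0.65. When each library in turn was left out and the same genes were tested, an alternative chosen after seeing the data, 10 of the 17 calls held in all 6 fits, and Wnt5b was lost without KO replicate 2 (edgeR adjusted p = 0.0635). Testing the same genes kept a choice made on all ES libraries. It lends no separate support to Wnt7b or Wnt8a, chosen through the KO libraries, where they are high. When the signal filter was applied anew in each left-out fit, Wnt5b, Wnt7b and Wnt8a were not tested without either KO library. Likewise Fzd1, Fzd4, Wnt9a and Wnt11 were not tested without either DKO library. The count in those fits was 11 without KO replicate 1 and 11 without KO replicate 2. There the call of Sfrp1 was lost without WT replicate 1 (adjusted p = 0.32), WT replicate 2, KO replicate 1 or KO replicate 2. Fzd4 was lost without KO replicate 2 (0.128) or WT replicate 1, Fzd1 without WT replicate 2 (0.0974) or KO replicate 1, and Sfrp4 without WT replicate 1 (0.089) or KO replicate 2. Without KO replicate 1 Sfrp5 had an edgeR adjusted p of 0.0825, and without WT replicate 1 Fzd8 had 0.0545. With all 12 libraries in the fit the calls of Porcn (adjusted p = 0.0828), Wnt9a (0.096), Sfrp5 (0.0972), Sfrp4 and Wnt8a (both 0.118), Wnt5b (0.141), Fzd4 (0.21), Wnt7b (0.217), Fzd9 (0.227), Fzd8 (0.253), Fzd1 (0.471) and Sfrp1 (0.653) were lost in edgeR, and those of Fzd3, Fzd5, Fzd7, Wnt6 and Wnt11 held.

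In DKO ES cells the ligand carrier Wls and the ligands Wnt11, Wnt6 and Wnt9a were much higher than in WT ES cells, Fzd7 was more than 2-fold higher, and Sfrp5 was more than 10-fold lower. Of the 27 genes tested, 21 passed the threshold between DKO and WT, against a background of 63.9% of all genes tested. Of these, 11 were higher (background 32.2%) and 10 lower (background 31.7%), and 11 differed at least 2-fold (background 26.9%). Wls, Wnt9a, Wnt11, Fzd1 and Fzd4, all among the 11 higher genes, were tested only through the DKO libraries, so the filter in part decided that count. The median log2 fold change of the 27 was 0.21, against -0.01 over all genes.

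Wls stood at 14.4 and 16.4 RPKM in DKO ES cells, against 0.596 and 0.265 RPKM in WT ES cells. Both DKO libraries lay far above both WT libraries. The log2 fold change was 5.17 (edgeR adjusted p = 2.37e-08, SE 0.28), a 36.1-fold difference. The longest model of Wls is a noncoding one. It held nearly as many reads as the coding model in DKO ES cells (1659 and 2198 against 1713 and 2198) but fewer in KO (52 and 36 against 243 and 202) and WT ES cells (76 and 35 against 151 and 96). In the coding model Wls stood at 15.3 and 16.8 RPKM in DKO and 1.22 and 0.750 RPKM in WT ES cells, and the log2 fold change was 4.04 (edgeR adjusted p = 2.18e-08). Porcn, which acts before Wls, moved the other way, at 4.14 and 3.0 RPKM in DKO and 6.67 and 6.39 RPKM in WT ES cells, a log2 fold change of -0.87 (edgeR adjusted p = 0.000437, SE 0.16).

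Wnt11 stood at 8.78 and 5.90 RPKM in DKO ES cells and at 0.771 and 0.610 RPKM in WT ES cells. It was the only Wnt ligand above 5 RPKM in any ES library, and it held 47.2% and 45.0% of summed Wnt ligand RPKM in DKO. The log2 fold change was 3.41 (edgeR adjusted p = 9.97e-08, SE 0.22). Wnt6, a ligand of the surface ectoderm, stood at 4.54 and 2.73 RPKM in DKO and 0.378 and 0.711 RPKM in WT ES cells, a log2 fold change of 2.73 (edgeR adjusted p = 1.21e-05, SE 0.32). Wnt9a, a ligand of joint formation, averaged 1.55 ± 0.0327 RPKM in DKO and 0.305 ± 0.0610 RPKM in WT ES cells (SD, n = 2 each), a 5.10-fold difference. For all 3 ligands both DKO libraries lay above both WT libraries. The share of all genes separated in this way is not given. Such separation is description alone, here and for the other genes whose groups are said not to overlap. Wnt5b, Wnt7b and Wnt8a did not pass, with log2 fold changes of 0.04, 0.49 and -1.24 and adjusted p-values of 0.926, 0.124 and 0.0504. The 12 markers of primitive and visceral endoderm, a lineage that arises in ES cultures, summed to 34.1 and 24.4 RPKM in DKO ES cells, with 5 and 4 of 12 at 1 RPKM or more, and to 4.81 and 4.74 RPKM in WT ES cells with 1 of 12. The 10 neural progenitor markers summed to 83.9 and 69.8 RPKM in DKO and 10.4 RPKM in both WT ES libraries, with 3 of 10 at 1 RPKM or more in each. Sox1 (64.4 and 54.4 RPKM in DKO, 2.85 and 2.91 RPKM in WT) and Olig2 (15.0 and 10.9 RPKM in DKO, 0.0357 and 0.0776 RPKM in WT) carried that sum, whereas Nes, at 3.18 and 3.48 RPKM in DKO and 6.0 and 5.86 RPKM in WT, and Pax6, at 0.129 and 0.228 RPKM in DKO and 1.0103 and 1.06 RPKM in WT, were lower in DKO. The part of these marker differences in the DKO values was not tested.

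Wls, Wnt11 and Wnt6 rose together in DKO ES cells, and the sequences around their starts are given for comparison, again from RefSeq on GRCm38.p6. They lie at chr3:159839400-159839699, chr7:98834862-98835161 and chr1:74771642-74771941, all on the plus strand. For Wnt11, which has 2 annotated starts in the table, the upstream one is shown. Capitals mark ATCAAAG, the reverse strand of CTTTGAT, which begins 51 bases before the start of Wnt11.
Wls: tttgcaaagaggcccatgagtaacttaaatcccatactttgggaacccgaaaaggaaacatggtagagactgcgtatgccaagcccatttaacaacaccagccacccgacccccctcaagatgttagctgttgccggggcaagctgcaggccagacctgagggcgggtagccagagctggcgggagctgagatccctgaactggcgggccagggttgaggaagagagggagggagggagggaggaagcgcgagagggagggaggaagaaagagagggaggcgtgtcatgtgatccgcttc
Wnt11: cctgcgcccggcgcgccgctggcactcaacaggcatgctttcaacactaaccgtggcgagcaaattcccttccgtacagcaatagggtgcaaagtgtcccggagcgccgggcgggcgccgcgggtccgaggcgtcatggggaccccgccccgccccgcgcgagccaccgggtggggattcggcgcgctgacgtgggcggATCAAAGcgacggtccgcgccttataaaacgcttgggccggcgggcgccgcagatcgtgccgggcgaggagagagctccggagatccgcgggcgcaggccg
Wnt6: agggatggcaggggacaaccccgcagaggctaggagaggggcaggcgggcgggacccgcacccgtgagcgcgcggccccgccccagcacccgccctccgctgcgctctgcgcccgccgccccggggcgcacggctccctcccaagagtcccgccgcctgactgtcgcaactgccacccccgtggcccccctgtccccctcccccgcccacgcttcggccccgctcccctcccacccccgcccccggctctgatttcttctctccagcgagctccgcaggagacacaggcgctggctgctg
Their CpG counts are 11 for Wls, 45 for Wnt11 and 31 for Wnt6.

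Fzd7 stood at 132 and 118 RPKM in DKO ES cells, against 59.8 and 56.6 RPKM in WT ES cells. Both DKO libraries lay above both WT libraries. The log2 fold change was 1.11 (edgeR adjusted p = 2.41e-06, SE 0.11), and the median of chromosome 1 in this comparison was 0.12. Fzd5 stood at 53.3 and 43.2 RPKM in DKO, just under the 61.6 RPKM of both WT libraries, with a log2 fold change of -0.35 (edgeR adjusted p = 0.0163, SE 0.11). All 10 Frizzled genes were at 1 RPKM or more in both DKO ES libraries, against 8 in each WT library. Fzd1 stood at 2.16 and 1.65 RPKM in DKO and 0.457 and 0.393 RPKM in WT ES cells, a 4.49-fold difference. Fzd4 and Fzd6 were 2.51- and 2.47-fold higher, and Fzd3 rose by a log2 fold change of 0.53. Fzd9 and Fzd10 fell by 1.24 and 0.77 on the log2 scale, whereas Fzd2 and Fzd8 did not pass (-0.19 and 0.21).

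**Figure D2:**
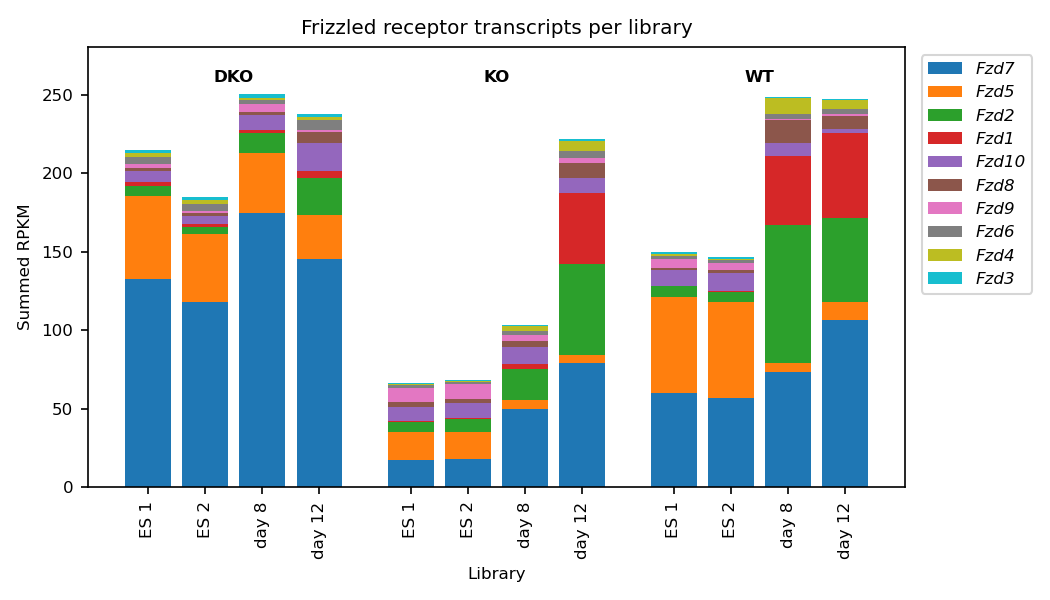
Summed RPKM of the 10 Frizzled genes in each library, stacked by gene, with libraries ordered by genotype. Fzd7 and Fzd5 fill most of the DKO and WT ES bars, the KO ES bars reach 66.2 and 67.9 RPKM, and Fzd1 and Fzd2 widen in the differentiated WT bars.

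Of the coreceptors, Lrp5 was at 17.5 and 12.9 RPKM in DKO and 11.6 and 10.8 RPKM in WT ES cells, a log2 fold change of 0.45 (edgeR adjusted p = 0.0105, SE 0.13), and Lrp6 did not pass. Lgr4 stood at 7.90 and 9.82 RPKM in DKO and 14.7 and 15.3 RPKM in WT ES cells. Both DKO libraries were lower, with a log2 fold change of -0.75 (edgeR adjusted p = 0.000477, SE 0.14). Rspo1, the only R-spondin above 1 RPKM in ES cells, was 1.70-fold lower. The antagonists split: Sfrp1 stood at 60.8 and 52.3 RPKM in DKO and 27.3 and 30.0 RPKM in WT ES cells, a log2 fold change of 0.99 (edgeR adjusted p = 9.59e-06, SE 0.11), while Sfrp2, Sfrp4, Sfrp5 and Dkk3 fell. Sfrp5, an antagonist of the anterior visceral endoderm, stood at 0.0507 and 0.195 RPKM in DKO and 1.59 and 1.19 RPKM in WT ES cells, a 10.7-fold difference (log2 fold change -3.42, SE 0.43, edgeR adjusted p = 2.42e-05). Of the 21 calls, 15 held in all 6 fits that left out a library and tested the same genes, Wls, Wnt6, Wnt9a, Wnt11 and Fzd7 among them. Fits with the same genes kept a choice of genes made on all ES libraries. They lend no separate support to Wls, Wnt9a, Wnt11, Fzd1, Fzd4 or Dkk3, each chosen through the group where it is high. With the filter applied anew, Wls, Wnt9a, Wnt11, Fzd1 and Fzd4, which reached 1 RPKM in DKO ES cells alone, were not tested without either DKO library, nor Dkk3 without either WT library. In those fits Rspo1 and Sfrp2 were lost without each of 5 libraries (both WT, both KO, and DKO replicate 2), with adjusted p-values up to 0.238 and 0.338 without DKO replicate 2. Fzd5 was lost without DKO replicate 2, WT replicate 1 or WT replicate 2 (0.123), Lrp5 without WT replicate 2 (0.0969), and Sfrp4 and Fzd3 without WT replicate 1 (0.0823 and 0.0517). With all 12 libraries in the fit the calls of Lrp5 (edgeR adjusted p = 0.051), Fzd9 (0.0617), Sfrp4 (0.086), Sfrp1 (0.102), Fzd3 (0.122), Porcn (0.133), Dkk3 (0.168), Fzd10 (0.186), Sfrp2 (0.302), Rspo1 (0.322) and Fzd5 (0.411) were lost.

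**Figure D3:**
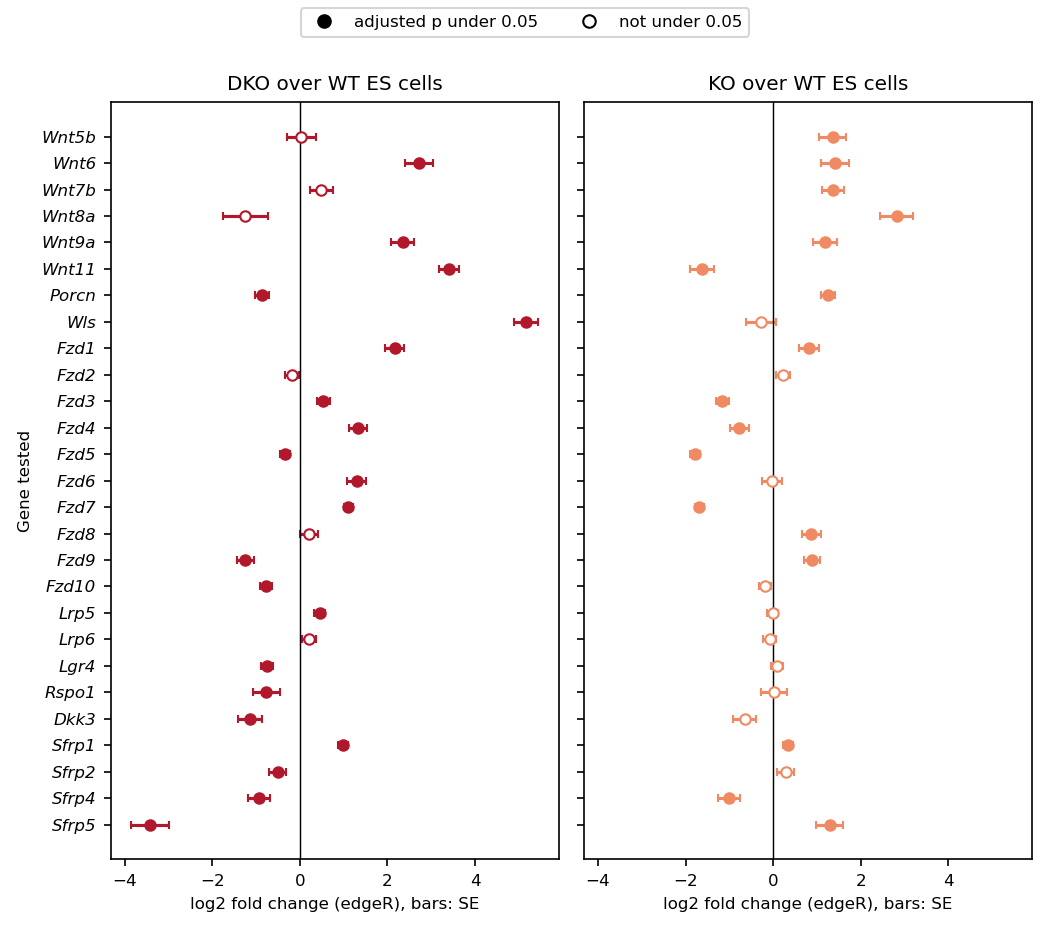
Log2 fold changes of the 27 genes tested in ES cells, DKO over WT at left and KO over WT at right, with bars for the standard error and filled circles for adjusted p under 0.05 in edgeR. Both panels use the same 2 WT libraries. Wls is at 5.17 and -0.27, Fzd7 at 1.11 and -1.69, and Porcn at -0.87 and 1.26.

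Set directly against KO, DKO ES cells differed in 24 of the 27 genes tested, 12 higher and 12 lower, against a background of 67.3% of all genes (33.3% higher and 34.1% lower). All 10 Frizzled genes passed, 6 of them higher. Wls, Wnt9a, Wnt11, Fzd1 and Fzd4 were tested only through the DKO libraries, and Wnt5b, Wnt7b and Wnt8a only through the KO libraries. The filter thus in part decided the counts of all genes tested and of the Frizzled genes. Fits below that left out a library and tested the same genes kept this choice of genes. They lend no separate support to Wls, Wnt9a, Wnt11, Fzd1, Fzd4, Wnt5b, Wnt7b or Wnt8a. Fzd7 was 6.95-fold and Fzd5 2.71-fold higher in DKO, Fzd4 4.27-fold and Fzd3 3.23-fold higher, and Fzd9 4.38-fold lower. The median log2 fold change between DKO and KO was 0.72 over chromosome 1 (upper quartile 1.32), where Fzd5 (1.44) and Fzd7 (2.80) lie, and 0.60 over chromosome 14 (upper quartile 1.21), where Fzd3 (1.69) lies, and the part of these shifts was not tested. The widest differences were in Wls, at 14.4 and 16.4 RPKM in DKO and 0.402 and 0.287 RPKM in KO (43.6-fold, edgeR adjusted p = 1.35e-08), in Wnt11 (32.6-fold higher) and in Sfrp5 (26.2-fold lower). In the coding model of Wls the log2 fold change was 3.13, against 5.45 in the longest model. Wnt8a, higher in KO, was 16.8-fold lower in DKO than in KO. Porcn stood at 4.14 and 3.0 RPKM in DKO and 16.1 and 14.2 RPKM in KO, a log2 fold change of -2.13 (edgeR adjusted p = 2.38e-07, SE 0.16), beside a median of -0.93 over the X chromosome. Dkk3, Lrp6 and Sfrp4 did not pass. With all 12 libraries in the fit the calls of Wnt5b (edgeR adjusted p = 0.0855), Sfrp2 (0.117), Fzd1 (0.119), Sfrp1 (0.244), Fzd8 (0.277), Fzd10 (0.297), Rspo1 (0.302), Wnt7b (0.314) and Fzd2 (0.443) were lost. Without DKO replicate 2 and with the filter applied anew the count was 15. In fits that left out a library and tested the same genes, 18 of the 24 calls held in all 6. Calls of Fzd2, Fzd8, Lrp5, Rspo1, Sfrp2 and Wnt7b were lost in at least 1 such fit, and with the filter applied anew they had adjusted p-values up to 0.274 for Fzd2 and 0.105 for Lrp5 (both without KO replicate 2), 0.217 for Rspo1, 0.102 for Fzd8 and 0.0532 for Wnt7b (all without DKO replicate 2), and 0.0553 for Sfrp2 (without KO replicate 1).

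Other parts of the pathway, taken from lists drawn up with earlier results of these data known, are given beside the shares of all genes tested, 32.2% higher and 31.7% lower for DKO and 23.5% higher and 19.2% lower for KO against WT. Of 15 tested genes among other secreted or membrane Wnt regulators, 6 were higher and 4 lower in DKO than in WT, with a median of 0.11, and 8 were higher and 0 lower in KO, with a median of 0.58. Notum, the extracellular enzyme that strips the lipid from Wnts, stood at 1.28 and 0.857 RPKM in DKO, 37.0 and 39.2 RPKM in KO and 21.3 and 22.6 RPKM in WT ES cells. Its log2 fold change was -4.37 in DKO (SE 0.17, edgeR adjusted p = 2.26e-09) and 0.84 in KO (SE 0.13, adjusted p = 0.000311). Gpr124 and Reck, which together serve Wnt7 signalling, rose by 4.45 and 2.21 in DKO on the log2 scale, Apcdd1 rose by 1.30, and Gpc3 and Cthrc1 fell by 2.15 and 2.48. Of 17 tested genes of the beta-catenin destruction complex and Dishevelled family, 10 were higher and 2 lower in DKO (median 0.40), and 1 was higher and 1 lower in KO. Ctnnb1, which encodes beta-catenin, stood at 267 and 255 RPKM in DKO and 144 and 145 RPKM in WT ES cells, a log2 fold change of 0.86, and Gsk3b, Btrc, Tnks, Csnk1a1 and Dvl2 rose by 0.89, 0.94, 1.26, 0.76 and 0.72. Of 14 tested TCF/LEF factors and cofactors, 5 were higher and 7 lower in DKO (median -0.27), and 4 higher and 5 lower in KO. Lef1, a nuclear partner and a known target of beta-catenin, stood at 0.137 and 0.0503 RPKM in DKO, 3.54 and 5.35 RPKM in KO and 2.4 and 2.33 RPKM in WT ES cells. Tcf7 fell by 1.50, Tle1 by 0.94 and Ctnnbip1 by 0.99 in DKO, while Tle3 and Tcf7l2 rose by 1.71 and 1.09. Axin2, a widely used target of beta-catenin that was picked after its values were seen, did not pass in DKO or KO, with log2 fold changes of -0.06 and -0.16 (adjusted p = 0.721 and 0.364). Of 11 tested planar cell polarity genes 2 were higher and 3 lower in DKO, and 5 higher and 2 lower in KO. In DKO the counts of secreted regulators, of higher TCF/LEF genes and of lower polarity genes lay near the shares of all genes, as did those of higher TCF/LEF genes and lower polarity genes in KO, and no list was tested as a whole.

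Differentiation brought up ligands, an R-spondin and antagonists that were near 0 in ES cells, and raised receptors that ES cells already carried. Between the 6 differentiated and the 6 ES libraries, with genotype in the model, 21 of 35 genes tested passed, 19 higher (background 20.1%) and 2 lower (background 15.7%), against a background of 35.8% of 13429 genes in either direction. The labels name a GSK3 inhibitor for the ES libraries only, so its part cannot be told apart from that of cell state. The median log2 fold change of the 35 was 1.49, against 0.02 over all genes tested. Both the split and the median are in part fixed by the filter: 8 of the 35 (Dkk1, Dkk2, Frzb, Rspo3, Wnt2, Wnt3, Wnt4 and Wnt5a) stood under 1 RPKM in every ES library and were tested only through differentiated libraries, and all 8 were higher. Of the other 27, 11 were higher and 2 lower. The rise differed between libraries: Wnt ligands at 1 RPKM or more numbered 2 and 9 at days 8 and 12 in DKO, 7 and 9 in KO, and 9 and 10 in WT. Their summed level at days 8 and 12 was 5.88 and 39.5 RPKM in DKO, 25.6 and 39.8 RPKM in KO, and 79.9 and 86.8 RPKM in WT. The DKO day 8 sum was under both DKO ES sums, while every other differentiated sum was above the ES sums of its genotype. The 12 endoderm markers summed to 53.2 and 621 RPKM on days 8 and 12 in DKO, 37.4 and 386 RPKM in KO and 407 and 951 RPKM in WT, and the 10 markers of primitive streak and mesoderm to 11.5 and 105 RPKM in DKO, 147 and 268 RPKM in KO and 369 and 251 RPKM in WT. Their part in the ligand values was not tested.

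Wnt5a, a ligand of polarity and migration, stood at 0.129 and 2.03 RPKM in the DKO day 8 and day 12 libraries, 5.27 and 12.4 RPKM in KO, 17.8 and 3.84 RPKM in WT, and 0.0516 to 0.173 RPKM over the 6 ES libraries. Only the DKO day 8 library lay within the ES range, and the log2 fold change of differentiated over ES cells was 5.19 (SE 0.91, edgeR adjusted p = 0.0033). Wnt3, the ligand that starts the primitive streak, stood at 0.177 and 9.70 RPKM in DKO, 4.05 and 4.97 RPKM in KO and 3.0 and 1.49 RPKM in WT on days 8 and 12, against 0.0628 to 0.541 RPKM in ES cells (log2 fold change 3.68, SE 0.72, adjusted p = 0.00489). Wnt2, a ligand of lung and placenta, reached 33.8 and 7.05 RPKM in WT and 1.32 and 4.28 RPKM in KO, and stayed at 0 and 0.265 RPKM in DKO. Wnt4 and Wnt5b rose by log2 fold changes of 2.997 and 1.36. Wnt11 reached 29.2 RPKM at day 12 in WT and Wnt6 17.1 RPKM, but neither passed over the 3 genotypes (adjusted p = 0.0635 and 0.713), nor did Wnt7b, Wnt8a, Wnt9a and Wls.

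Among receptors, Fzd2 stood at 12.8 and 23.7 RPKM in DKO, 19.6 and 57.9 RPKM in KO and 88.1 and 53.1 RPKM in WT on days 8 and 12, against 4.65 to 8.10 RPKM in ES cells. Every differentiated library lay above every ES library, with a log2 fold change of 2.39 (edgeR adjusted p = 0.0015, SE 0.35). Fzd1 stood at 1.98 and 4.90 RPKM in DKO, 3.44 and 45.3 RPKM in KO and 43.7 and 54.3 RPKM in WT, against 0.393 to 2.16 RPKM in ES cells. Averaged over genotypes, Fzd4, Fzd7 and Fzd8 rose by log2 fold changes of 1.90, 0.82 and 1.62, and Fzd5 fell by 1.77. Fzd4 rose in KO and WT only. In DKO it stood at 2.36 and 2.22 RPKM in ES cells and lower on days 8 and 12, at 1.65 and 1.73 RPKM. The fall of Fzd5 was shallow in DKO, at 38.3 and 27.9 RPKM on days 8 and 12, against 5.95 and 5.60 RPKM in KO and 5.82 and 11.4 RPKM in WT. Lrp5, Lrp6 and Lgr4 rose by 0.996, 0.42 and 0.62 on the log2 scale.

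Rspo3, an R-spondin of placental and vascular development, stood at 0.166 and 3.62 RPKM in DKO, 3.53 and 8.41 RPKM in KO and 14.8 and 5.79 RPKM in WT on days 8 and 12, and at most 0.198 RPKM in ES cells (log2 fold change 6.63, SE 1.33, edgeR adjusted p = 0.00542). Dkk1, an Lrp-binding antagonist and a known target of beta-catenin, stood at 0.680 and 13.5 RPKM in DKO, 1.80 and 5.30 RPKM in KO and 5.93 and 4.06 RPKM in WT, against 0 to 0.0777 RPKM in ES cells. The groups did not overlap, and DKO day 12 held the highest value (log2 fold change 6.83, SE 0.86, adjusted p = 0.000895). Its start, at chr19:30549447-30549746 on the minus strand of GRCm38.p6 in RefSeq, is shown because it holds the TCF/LEF letters CTTTGAA, in capitals, beginning 117 bases before the start.
Dkk1: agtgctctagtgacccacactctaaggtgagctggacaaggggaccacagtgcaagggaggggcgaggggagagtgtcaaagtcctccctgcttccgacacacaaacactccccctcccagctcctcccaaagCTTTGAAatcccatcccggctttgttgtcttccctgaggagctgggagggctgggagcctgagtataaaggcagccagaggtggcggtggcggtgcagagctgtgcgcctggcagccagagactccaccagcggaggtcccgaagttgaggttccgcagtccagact
Dkk2 had no reads in any ES library or in either differentiated DKO library, stood at 0.126 and 2.90 RPKM in KO and 5.20 and 9.54 RPKM in WT, and averaged at least 168-fold higher in differentiated than in ES libraries when 3 reads per library are taken as the floor. Frzb stood at 0.0151 and 4.08 RPKM in DKO, 1.10 and 7.34 RPKM in KO and 12.7 and 31.0 RPKM in WT, against at most 0.0453 RPKM in ES cells. Dkk3 and Sfrp2 rose by 1.95 and 0.76, and Sfrp4 fell by 1.64. Sfrp1 did not pass (0.26, adjusted p = 0.499).

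**Figure D4:**
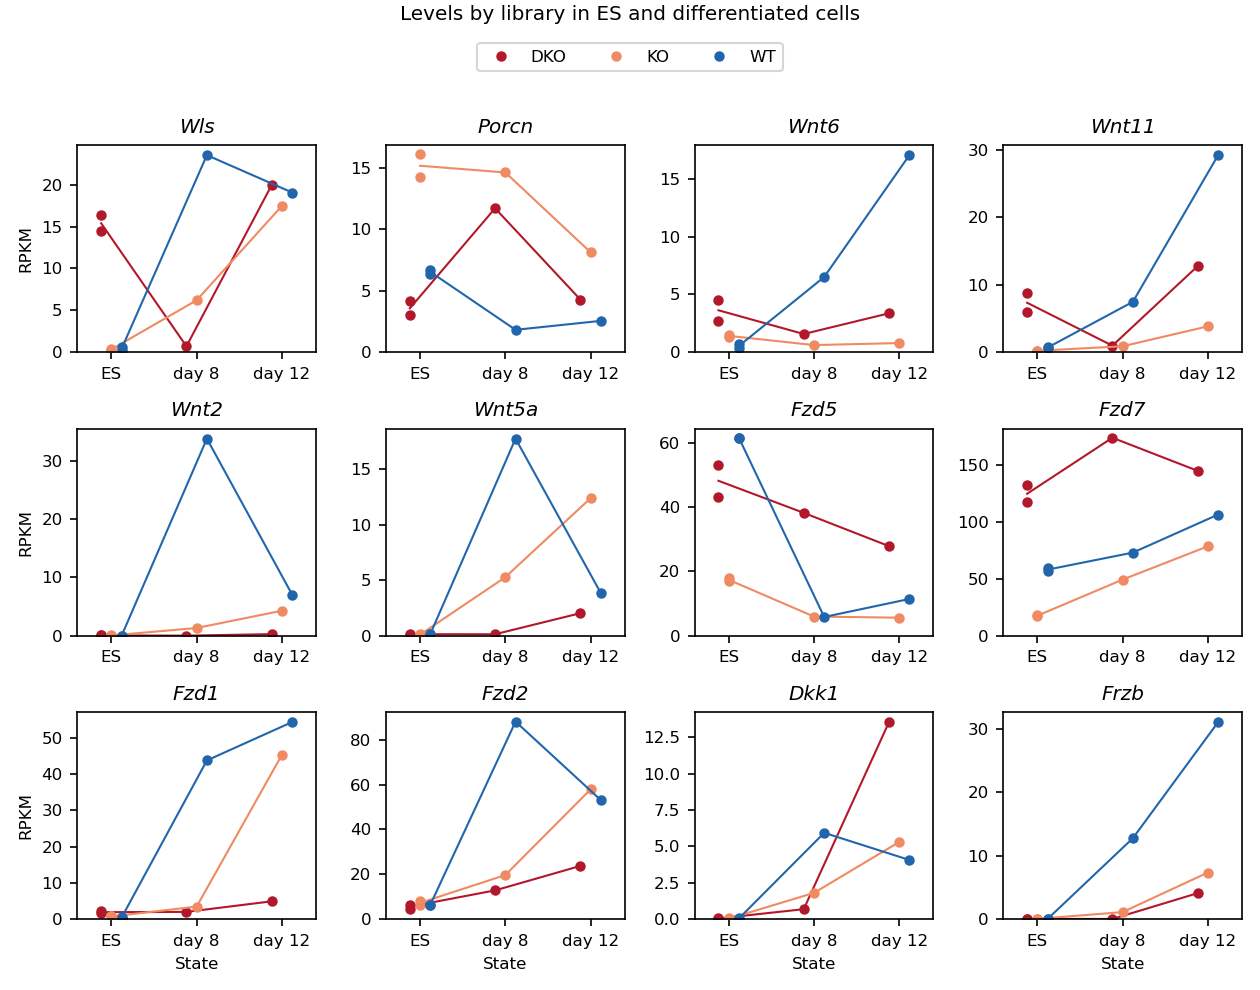
RPKM of 12 genes in ES cells (2 libraries each), at day 8 and at day 12 (1 library each), by genotype. Lines join the ES mean to the later libraries. In DKO, Wls (longest model) is at 0.709 RPKM at day 8 between ES values of 14.4 and 16.4 and a day 12 value of 19.96 RPKM, and Fzd1 stays under 5 RPKM.

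Without the DKO day 8 library, 26 genes passed between differentiated and ES cells in place of 21, a count given without the share of all genes. Of the 21 calls, 12 held when each library in turn was left out. The others were lost in at least 1 such fit, with their highest adjusted p-values without WT ES replicate 1 for Sfrp2 (0.118), Lrp6 (0.0957), Wnt4 (0.0826), Wnt5b (0.0564) and Wnt2 (0.0558), without WT ES replicate 2 for Fzd4 (0.1), without KO ES replicate 1 for Fzd7 (0.0779), without KO day 8 for Lgr4 (0.064) and without KO day 12 for Fzd1 (0.058). Leaving out a WT ES library lowered the count to 12 or 13. The other pathway genes are given beside shares of 20.1% higher and 15.7% lower over all genes. Of 20 tested secreted or membrane regulators, 11 were higher in differentiated cells and 0 lower. Of 19 destruction complex genes 7 were higher and 1 lower, and of 15 TCF/LEF genes 6 were higher and 1 lower. Of 13 polarity genes 3 were higher, near the share of all genes, and 1 lower. The filter in part fixed these splits too. Cer1, Gpc6, Rnf43, Ror1 and Tspan12 among the regulators, and Apc2 of the destruction complex, were all higher. Each stood under 1 RPKM in every ES library and was tested only through differentiated libraries.

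Between genotypes within differentiated cells none of the 34 genes tested passed in edgeR for KO against WT (background 0%), for DKO against WT (background 2.18%) or for DKO against KO (background 0.00775%). These comparisons rest on 1 library per genotype and day with 2 residual degrees of freedom. At an unadjusted p under 0.05 there were 8, 16 and 10 genes, or 23.5%, 47.1% and 29.4% of the 34, beside 23.3%, 30.8% and 16.8% of all genes tested, and DESeq2 called 7, 18 and 7, whereas limma on log2(RPKM + 1) called 1, 4 and 0. Shares of all genes are not given for DESeq2, limma or the left-out fits, so those counts cannot be read against a background. The genes with the smallest adjusted p-values between DKO and WT were Wnt4 (0.0567), Dkk2 (0.0601), Wnt6 (0.0607) and Fzd3 (0.0636). Wnt4 stood at 0.133 and 0.683 RPKM in DKO on days 8 and 12, against 1.67 and 4.50 RPKM in WT. Dkk2, without reads in DKO, averaged at least 401-fold lower than in WT at the floor of 3 reads per library. Fzd5 was 4.14-fold higher in DKO than in WT (adjusted p = 0.0787), Fzd1 15.9-fold lower (0.0768) and Frzb 29.9-fold lower (0.116). Porcn stood at 11.7 and 4.28 RPKM in DKO, 14.6 and 8.12 RPKM in KO and 1.82 and 2.55 RPKM in WT on days 8 and 12, with no overlap between either mutant and WT, and edgeR adjusted p-values of 0.142 for DKO and 0.147 for KO against WT. Wnt6 stood at 1.58 and 3.37 RPKM in DKO, 0.618 and 0.797 RPKM in KO and 6.52 and 17.1 RPKM in WT. Without the DKO day 8 library no gene passed in these comparisons, whereas without WT day 12 there were 9 between DKO and WT and 2 between DKO and KO, and without WT day 8 there were 1 and 2.

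The change on differentiation itself was then compared between genotypes, as the log2 change in the mutant minus that in WT. For DKO, 19 of 35 genes passed, 7 higher (background 21.1%) and 12 lower (background 20.8%), against a background of 42% of all genes in either direction. For KO, 6 passed, 2 higher and 4 lower, against 16.3% (9.07% higher and 7.24% lower). All 6 Wnt ligands that passed in DKO, Wnt2, Wnt4, Wnt6, Wnt7b, Wnt9a and Wnt11, were on the lower side. Wnt2, Wnt4 and Rspo3 were tested only through differentiated libraries, where both WT values lay above both DKO values. The filter thus in part decided the counts of lower genes and lower ligands. Wnt11 stood at 8.78 and 5.90 RPKM in DKO ES cells and at 0.973 and 12.8 RPKM on days 8 and 12, whereas in WT it stood at 0.771 and 0.610, then 7.47 and 29.2 RPKM. The difference in its change was -5.34 (SE 0.54, edgeR adjusted p = 0.000306). Wls, already high in DKO ES cells, stood at 0.709 and 19.96 RPKM on days 8 and 12 in DKO and at 23.5 and 19.1 RPKM in WT (difference -7.29, SE 1.43, adjusted p = 0.00482, and -5.62 without DKO day 8). In its coding model Wls stood at 3.06 and 20.6 RPKM in DKO and 24.2 and 19.6 RPKM in WT on days 8 and 12, and the difference was -5.42 (edgeR adjusted p = 0.00133). For Wnt6 the difference was -4.90 in DKO (SE 0.57, adjusted p = 0.000521) and -5.33 in KO (SE 0.58, adjusted p = 0.00246). Wnt2 had no reads in WT ES cells, and Rspo3 had 2 and 0, so their fitted differences are no measure of size. Wnt4 had 4 and 2 reads there, so the size of its difference rests on few reads too. Fzd1 and Fzd4 had differences of -6.20 and -3.52 in DKO. On the higher side stood Fzd5, Fzd9 and Porcn in DKO, at 2.37, 3.09 and 2.60, genes whose values in both differentiated WT libraries were under those in WT ES cells. Of the 19 calls for DKO, 9 held when each library in turn was left out, namely Fzd1, Fzd4, Fzd5, Fzd9, Wls, Wnt4, Wnt6, Wnt9a and Wnt11. The highest adjusted p-values of the other 10 were 0.163 for Wnt2 and 0.107 for Fzd3 (without DKO ES replicate 1), 0.126 for Wnt7b (without WT day 12), 0.118 for Fzd2 (without DKO day 8), 0.116 for Sfrp4 (without WT ES replicate 1), 0.0928 for Lrp5 and 0.0916 for Rspo3 (without WT ES replicate 2), 0.083 for Sfrp5 (without DKO day 12), and 0.067 for Fzd10 and 0.0519 for Porcn (without DKO ES replicate 2). For KO, Wnt4 and Wnt6 held in every such fit, while Fzd7, Wnt9a, Sfrp5 and Fzd3 reached adjusted p-values of 0.168 and 0.16 (without WT ES replicate 1), 0.0773 (without WT ES replicate 2) and 0.0727 (without KO ES replicate 2). The count for DKO was 11 without WT ES replicate 1, WT ES replicate 2 or DKO ES replicate 1, and 12 without DKO ES replicate 2. For KO it was 2 without either WT ES library, 3 without either KO ES library and 15 without WT day 12. Without the DKO day 8 library 16 genes passed for DKO, and Fzd2, Fzd3, Lrp5, Sfrp4 and Wnt7b no longer did.

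Between day 12 and day 8, with genotype in the model, none of the 34 genes tested passed in edgeR (background 0%), 5 had an unadjusted p under 0.05 (14.7%, beside 12.3% of all genes tested), and DESeq2 called 3 and limma 0, with no share of all genes given for DESeq2 or limma. Those 5 were Wnt11, Sfrp5, Wnt4, Wnt6 and Frzb. Sfrp5 stood at 16.2, 4.23 and 28.1 RPKM at day 12 in DKO, KO and WT, against 2.41, 1.71 and 5.51 RPKM at day 8, higher at day 12 in all 3 genotypes, and Wnt11 was higher at day 12 in all 3 as well.

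Of 4 pairs of adjacent Wnt genes (Wnt6 with Wnt10a on chromosome 1, Wnt3a with Wnt9a and Wnt9b with Wnt3 on chromosome 11, Wnt10b with Wnt1 on chromosome 15), Wnt6, Wnt9a and Wnt3 passed 1 RPKM in some library while their neighbours did not, and neither Wnt10b nor Wnt1 did. Start-site sequences were found for 32 of the 50 genes, in 35 windows. The TCF/LEF letters CTTTGAA or CTTTGAT occurred on either strand in 3 windows (8.57%), those of Dkk1, Wnt5b and Wnt11, against 8.65% of all 32851 windows. The windows of these genes held a median of 25 CpG, against 7 over all, and a median GC content of 66.7%, against 52.7%.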

How the data were processed

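RNA of 12 mouse libraries was selected for polyadenylated transcripts, per the labels' protocols, and reads were aligned to mm9 with Bowtie2, per the submitters' processing notes. The deposited files hold, for each transcript model, raw read counts and the authors' RPKM. The read counter and its strand setting are not given in the sources used here, so reads of overlapping and antisense genes cannot be told apart. The longest model stood for each symbol. Counts were tested in edgeR 4.0.16 (R 4.3.3) with TMM scaling and the quasi-likelihood test, over all genes at 1 RPKM or more in at least 2 libraries of the fit, with Benjamini-Hochberg adjustment and a threshold of 0.05. Fits held the 6 ES libraries, the 6 differentiated libraries (genotype and day) or all 12 (state by genotype). Standard errors belong to the log2 fold changes. Alternatives were RLE scaling, DESeq2 1.42.0, limma 3.58.1 on log2(RPKM + 1) and log2(RPKM + 0.1), other filters, other models, a replicate block and left-out libraries. The procedure was also run on counts simulated from edgeR's own fitted model, which cannot test whether that model holds for these libraries. Genes at 5 RPKM or more in at least 2 libraries, or called with an average of 1 RPKM in a compared group, were named with values. Other pathway genes were named by size of the called DKO difference, at most 6 a list. Members, lists and tests were chosen with earlier results of these data known. Figures were drawn with matplotlib 3.10.9.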

Additional observations from a re-analysis of the deposited data

Results flagged for a closer look

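For 25 values the change on differentiation differed between a mutant and WT by a test of that difference in edgeR, which compared the log2 change in the mutant with that in WT. In DKO the change was lower than in WT for the ligands Wnt2 (-12.86, where WT ES cells had no reads and the value is no measure of size), Wnt4 (-6.00), Wnt11 (-5.34), Wnt6 (-4.90), Wnt9a (-3.27) and Wnt7b (-3.14). It was also lower for Wls (-7.29, and -5.42 in its coding model), for Rspo3 (-7.41, with 2 and 0 reads in WT ES cells and a range of -10.6 to -5.45 when a library is left out, so that its size is not measured) and for the receptors Fzd1 (-6.20), Fzd4 (-3.52), Fzd2 (-1.85) and Lrp5 (-0.85). In DKO the change was higher than in WT for Fzd9 (3.09), Porcn (2.60), Sfrp5 (2.50), Fzd5 (2.37), Fzd10 (2.23), Sfrp4 (1.85) and Fzd3 (1.11). In KO the change was lower than in WT for Wnt4 (-5.38), Wnt6 (-5.33), Sfrp5 (-3.47) and Wnt9a (-2.19), and higher for Fzd3 (1.78) and Fzd7 (1.19). Wnt4 had 4 and 2 reads in WT ES cells, so the size of its difference in either mutant rests on few reads. Each mutant was set against the same WT libraries. The DKO day 8 library, whose pluripotency markers summed above both DKO ES libraries, enters every DKO value, and calls lost without it are named above. In DKO ES cells Wls, Wnt6, Wnt9a, Wnt11, Fzd1 and Fzd4 were already higher than in WT. Fzd5, Fzd9, Fzd10, Porcn, Sfrp4 and Sfrp5 were already lower there, and these ES differences enter the values. Wnt2, Wnt4 and Rspo3 were tested only through differentiated libraries, so the filter in part favoured their direction.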

How the results depend on the processing

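Among 1741 alternative values of called genes, leaving aside the fits with the same genes, 1524 kept direction and call, 217 lost the call and 0 reversed. With a filter of 5 RPKM, which leaves fewer genes tested, 6 genes passed in ES cells for KO against WT, 10 for DKO against WT and 12 for DKO against KO, in place of 17, 21 and 24. With all 12 libraries in the fit there were 6, 11 and 15, with the lost calls named beside each ES comparison, and the cause was not tested. In differentiated cells, where edgeR called 0, DESeq2 called 7 for KO against WT, 18 for DKO against WT and 7 for DKO against KO, and 3 between days. There limma called 1 for KO against WT at either pseudocount, and for DKO against WT 4 with a pseudocount of 1 and 7 with 0.1. In ES cells, leaving out 1 library at a time gave 11 to 18 for KO against WT, 14 to 23 for DKO against WT and 15 to 26 for DKO against KO, with the lower ends from fits filtered anew and the upper ends from fits that kept the same genes, which were added after seeing the data. In differentiated cells it gave 0 to 9 for DKO against WT, 0 to 2 for DKO against KO and 0 to 0 for KO against WT and between days. Between differentiated and ES cells it gave 12 to 26, and for the difference in change 2 to 15 in KO and 11 to 23 in DKO. With a replicate block 17, 20 and 24 genes passed in the ES comparisons. Same-numbered libraries did not deviate together (correlations of -0.0549, -0.00704 and -0.105 for DKO with WT, KO with WT and DKO with KO), and a crossed pairing, added after seeing the data, gave 25 for DKO against KO. Only 1 library per genotype and day limits every differentiated value, and genes with few reads, such as Wnt2, Rspo3 and Dkk2 in ES cells, have no measurable fold there. Counts under the alternatives are given without the share of all genes called in the same setting, so they describe these genes alone.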
